A study of Mus musculus with 27 samples.

Results

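The globin genes and the globin chaperone gene were followed through 5 RNA-Seq tables of MEL cells, a mouse erythroleukaemia line that is held at an erythroid progenitor stage and can be induced to mature. The members were chosen by symbol: *Hba-x*, *Hba-a1*, *Hbb-y*, *Hbb-bh1*, *Hbb-b1*, *Hbb-b2* and *Ahsp*. Of these 7 symbols, 6 had a row among the 20602 gene rows that the tables list between them. *Ahsp*, which encodes a chaperone of free α-globin, is not analysed here. *Hbb-b2* was counted in a row joined with *Hbb-bt*, so its values belong to both genes, and the row is called *Hbb-b2+Hbb-bt*. Members listed were 6 for *Cbfa2t3* and for *Irf2bp2*, 5 for *Kdm1a* and for MEL induction, and 4 for *Gfi1b*.

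Haemoglobin is built from α-like and β-like globin chains, each of which holds a haem group. In the mouse the α-like genes lie in a cluster on chromosome 11 and the β-like genes in a cluster on chromosome 7. Embryonic red cells use *Hba-x* (ζ-globin), *Hbb-bh1* and *Hbb-y*, whereas fetal liver and adult red cells use *Hba-a1*, its near-identical neighbour *Hba-a2*, and the adult β genes, which are *Hbb-b1* and *Hbb-b2* in some mouse haplotypes and *Hbb-bs* and *Hbb-bt* in others. Distant enhancers upstream of each cluster, bound by GATA1, TAL1 and LDB1, raise the genes strongly as red cells mature. ETO2 (encoded by *Cbfa2t3*), IRF2BP2, GFI1B and LSD1 (encoded by *Kdm1a*) are co-repressors or repressors found with these factors in erythroid progenitors.

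The 21 RNA-Seq libraries fell into 11 groups of a MEL line that is 1 clone. ETO2 was depleted with 2 hairpins, giving the groups Eto2 WT, Eto2 KD-sh2 and Eto2 KD-sh3 with 2 libraries each. IRF2BP2 was depleted with 1 hairpin (Irf2bp2 WT and Irf2bp2 KD-sh1, 2 libraries each) and LSD1 in 2 libraries against a single control library (Lsd1 KD and Lsd1 WT). These knock-downs (KDs) used lentiviral shRNA and cells harvested 72 h after transduction. *Gfi1b* KD used siRNA transfection (Gfi1b WT and Gfi1b KD, 2 libraries each), and which siRNA each library received is not given in the sources used here. The libraries called WT are cells of the same line that received non-targeting RNA. MEL induced cells, after 96 h of differentiation, and MEL non-induced cells had 2 libraries each, and the inducing agent is not given in the sources used here. No label says whether replicates came from separate cultures, so p-values measure the spread between these libraries. The methods call them biological replicates.

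Between 44519414 and 57684583 reads were counted in each of the 13 libraries of the *Cbfa2t3*, *Irf2bp2* and *Kdm1a* tables, and between 9929311 and 19623105 in each of the 8 libraries of the other tables. A floor of 3 counts therefore lay at 0.0519 to 0.0676 CPM (read counts scaled to library size by TMM) in the first and at 0.149 to 0.302 CPM in the second. The targeted gene was checked first. *Cbfa2t3* lay at 400.2 and 427 CPM in Eto2 WT, 202 and 243 CPM with sh2, and 123 and 145 CPM with sh3. *Irf2bp2* lay at 116 and 119.6 CPM in its controls and 92.2 and 94.9 CPM after KD, a log2 fold change of -0.33 (adjusted p = 0.00266, edgeR), which is below the fold limit of 0.5 used here. *Kdm1a* was depleted to 16.9 and 16.3 CPM from a control value of 152 CPM. *Gfi1b* lay at 122 and 145 CPM in the controls, 76.4 CPM in Gfi1b KD replicate 2 and 216 CPM in the library labelled Gfi1b KD replicate 1, which goes against its label. Results of the *Gfi1b* table are therefore given with and without that library.

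The cells carried erythroid markers in every library. Of the 9 erythroid markers listed (among them *Gata1*, *Klf1* and *Slc4a1*), between 7 and 9 lay above the floor in each library. The summed level of the 5 lymphoid markers was at most 1.36 CPM, and that of the 7 myeloid markers lay between 12.5 and 186 CPM. In each table *Spi1* was the only myeloid marker that passed the filter on low counts, and 1 to 4 of the 7 lay above the floor in a library. The myeloid sums given below therefore rest mainly on that gene. The 6 megakaryocyte markers summed to between 174 and 1287 CPM.

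Not every member could be counted over its full length. The ratio of counts to the deposited RPKM gave a counted length of 598.5 bases (median over libraries) for *Hba-x*, 619 for *Hbb-y*, 610.3 for *Hbb-bh1* and 628 for *Hbb-b2+Hbb-bt*. It gave only 2.998 bases for *Hba-a1* and 1.0 base for *Hbb-b1*. Of the pieces of 50 bases in the annotated transcripts, 68.4% of those of *Hba-a1* also occur in *Hba-a2*, and 47.9% of those of *Hbb-b1* also occur in *Hbb-b2*. *Hba-x*, *Hbb-y* and *Hbb-bh1* share no such piece with another globin gene. The part of shared sequence in these counted lengths was not tested. Counts of *Hba-a1* and *Hbb-b1* are compared between libraries only, and their level against other genes is uncertain.

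The embryonic α-like gene *Hba-x* and the adult β row *Hbb-b2+Hbb-bt* carried most of the members' reads. They rose with ETO2 and IRF2BP2 depletion and with MEL induction, and lay lower in both LSD1-depleted libraries than in their control. The promoters shown are those found in the RefSeq promoter table for the genes of the members' rows. They are the 250 bases upstream of the start in RefSeq on GRCm38.p6, which is another build than that of the tables (mm9). Capitals mark matches on either strand to GATAAG (bound by GATA factors), CACCC (bound by factors such as KLF1), CCAAT, and TATAAA or ATAAAA, which resemble the TATA box. Motifs that overlap are marked together.
Hba-x, chr11:32276350-32276599, + strand: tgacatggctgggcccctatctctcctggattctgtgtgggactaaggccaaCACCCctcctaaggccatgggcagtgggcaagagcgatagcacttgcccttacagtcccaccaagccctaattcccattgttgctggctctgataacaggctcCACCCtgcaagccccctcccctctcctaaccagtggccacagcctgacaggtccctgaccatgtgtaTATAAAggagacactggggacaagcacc
Hba-a1, chr11:32283422-32283671, + strand: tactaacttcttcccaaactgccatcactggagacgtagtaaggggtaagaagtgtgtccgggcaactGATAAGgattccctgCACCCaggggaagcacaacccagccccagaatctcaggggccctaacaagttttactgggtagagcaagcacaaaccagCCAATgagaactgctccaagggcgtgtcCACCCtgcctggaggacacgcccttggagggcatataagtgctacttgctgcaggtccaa
Hbb-y, chr7:103853208-103853457, - strand: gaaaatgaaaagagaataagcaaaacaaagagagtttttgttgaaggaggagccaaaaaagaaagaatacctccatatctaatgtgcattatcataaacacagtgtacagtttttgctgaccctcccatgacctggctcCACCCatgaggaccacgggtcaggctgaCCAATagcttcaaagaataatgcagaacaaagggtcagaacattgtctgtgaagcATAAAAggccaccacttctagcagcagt
Hbb-bt, chr7:103813924-103814173, - strand: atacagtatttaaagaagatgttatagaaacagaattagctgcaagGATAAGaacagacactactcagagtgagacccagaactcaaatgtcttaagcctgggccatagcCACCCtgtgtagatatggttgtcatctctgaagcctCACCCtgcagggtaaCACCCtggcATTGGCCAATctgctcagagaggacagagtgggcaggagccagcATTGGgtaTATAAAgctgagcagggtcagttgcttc

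Each of the 4 windows held CACCC, with 2 matches in *Hba-x*, 2 in *Hba-a1*, 1 in *Hbb-y* and 3 in *Hbb-bt*. Over the 32851 promoter windows of the table, searched over the same 250 bases, 52% held CACCC, 33.8% held CCAAT, 22.8% held TATAAA or ATAAAA, and 6.55% held GATAAG. The CCAAT match stood in *Hba-a1*, *Hbb-y* and *Hbb-bt* and not in *Hba-x*. A TATA-like match stood 28 bases before the start in *Hba-x*, *Hbb-y* and *Hbb-bt*, and *Hba-a1* had no match to these letters. *Hbb-y* and *Hbb-bt* held the first 3 of these kinds of match together, as 3.27% of all windows do. GATAAG occurred in *Hba-a1* and *Hbb-bt*. The promoters of *Hbb-bh1*, *Hbb-b1* and *Hbb-b2* are not shown here.

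**Figure D1:**
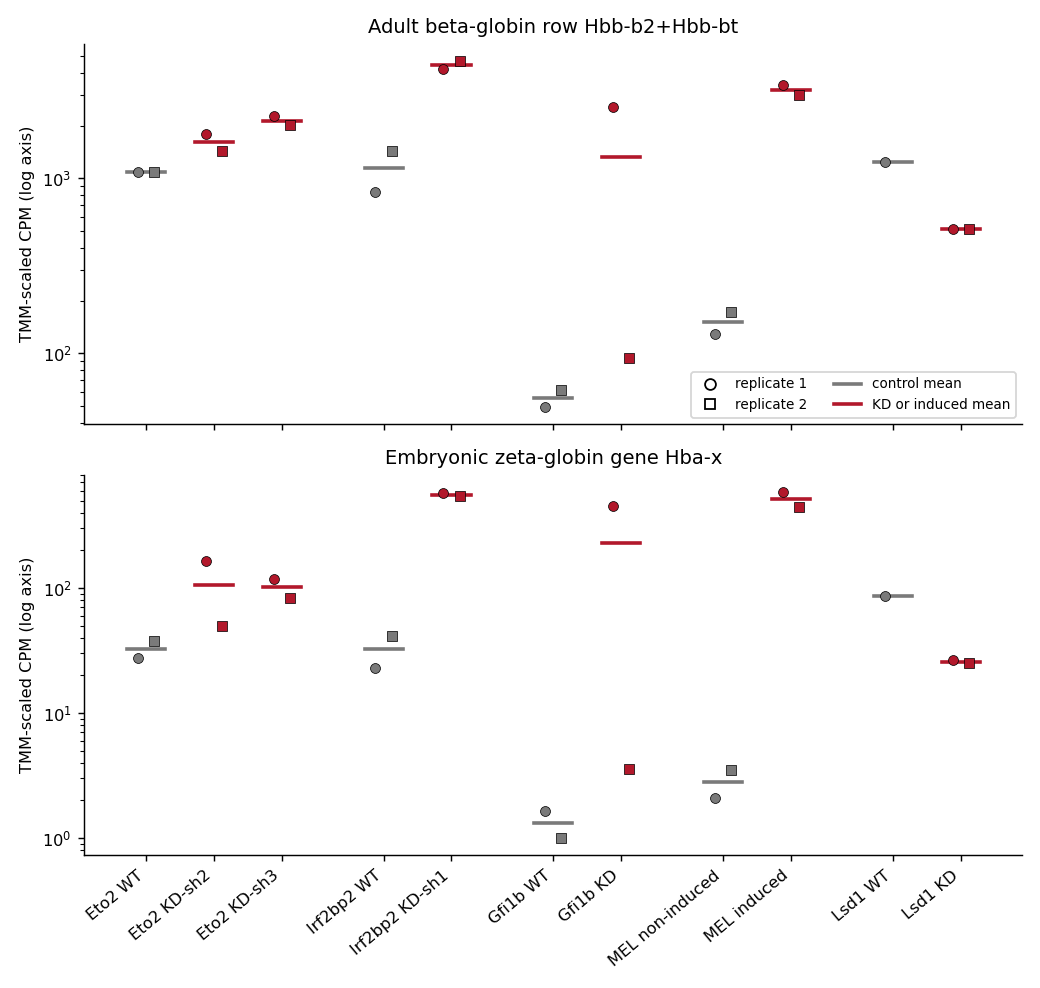
Level of the adult β row *Hbb-b2+Hbb-bt* (upper panel) and of the embryonic gene *Hba-x* (lower panel) in each library, in TMM-scaled CPM on a log axis. Circles are replicate 1, squares replicate 2 and bars group means, grey for controls and red for KD or induced cells. Both Irf2bp2 KD-sh1 libraries lie at 4236 CPM or above in the upper panel and both Lsd1 KD libraries lie below their control.

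*ETO2 depletion* asked whether globin genes are held back by ETO2 in progenitors. *Hbb-b2+Hbb-bt* had 55106 and 61894 reads in Eto2 WT, 88689 and 72902 with sh2 and 110976 and 116365 with sh3. In CPM these are 1081 and 1091 in the controls, 1794 and 1442 with sh2, and 2261 and 2015 with sh3. All 4 KD libraries lay above both controls, and the sh3 libraries lay above the sh2 libraries. The mean rose from 1086 ± 6.84 (SD, n = 2) to 1878 ± 347 CPM (SD, n = 4), a 1.73-fold difference. The log2 fold change was 0.79 (SE 0.15, adjusted p = 0.012). Adjusted p-values here are Benjamini-Hochberg values over every gene tested in a table, 12537 for this one, from the quasi-likelihood fit of edgeR.

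*Hba-x* had 1418 and 2142 reads in Eto2 WT, 8082 and 2497 with sh2, and 5858 and 4839 with sh3. Its levels were 27.8 and 37.8 CPM in the controls against 163 and 49.4 CPM (sh2) and 119 and 83.8 CPM (sh3). The groups did not overlap, although Eto2 KD-sh2 replicate 2 lay only 1.51-fold above the control mean and Eto2 KD-sh2 replicate 1 4.98-fold above it. The means were 32.8 ± 7.02 (SD, n = 2) and 104 ± 48.8 CPM (SD, n = 4), a 3.17-fold difference, with a log2 fold change of 1.66 (SE 0.41, adjusted p = 0.0333, edgeR). With the replicate number as a block, the log2 fold change was 1.52 and the adjusted p 0.0562, so the call was lost. It was also lost without Eto2 KD-sh3 replicate 1 (log2 fold change 1.59, adjusted p = 0.0566) and without either control. Over the 12 alternatives, the adjusted p of *Hba-x* ran from 5.27e-06 to 0.291.

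The embryonic β genes were close to the floor and still higher after ETO2 depletion. *Hbb-y* had 2 reads in each control, 15 and 14 with sh2, and 15 and 16 with sh3. All 4 KD libraries lay above both controls, with little spread between hairpins. The log2 fold change was 2.89 (SE 0.43, adjusted p = 0.00351, edgeR), and the ratio of read rates was 7.81, with an exact 95% interval from counting error of 2.90 to 29.6. *Hbb-y* passed the filter on low counts through its KD libraries, so a test of it could only have shown a rise and its call adds nothing to a count of members. *Hbb-bh1* had 3 and 2 control reads, and 7, 9, 8 and 12 after KD. It failed the filter and was not tested, and its rate ratio was 3.75 (1.47 to 12.2, counting error only).

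*Hba-a1*, the adult α gene counted over so few bases, had 4 and 7 control reads and 3, 12, 16 and 22 after KD. The groups overlapped, through Eto2 KD-sh2 replicate 1, and the log2 fold change of 1.30 (SE 0.66) did not pass the test (adjusted p = 0.256, edgeR). With sh3 alone it was 1.77 (adjusted p = 0.0124) and passed both limits, within 0.0124 to 0.678 over the 11 alternatives. *Hba-a1* too reached the filter only through KD libraries, so a test could only have shown a rise. *Hbb-b1* had 1 read in 1 control and 0 in the other 5 libraries of the table.

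Only *Hba-x* and *Hbb-b2+Hbb-bt* reached the filter in the controls too, and these 2 rose past both limits, which were an adjusted p no higher than 0.05 and a log2 change of at least 0.5. Of all genes tested 2.99% rose and 2.75% fell by the same limits. Without Eto2 WT replicate 1 or without Eto2 WT replicate 2, which leaves 1 control, the call count was 0, with log2 fold changes of 0.78 and 0.80 for *Hbb-b2+Hbb-bt*, 1.46 and 1.90 for *Hba-x*, and 2.96 and 2.81 for *Hbb-y*. Erythroid markers moved with the globins: they summed to 1746 to 1776 CPM in the controls and 2206 to 2735 CPM in the KD libraries, with 5 of 9 raised. Megakaryocyte markers summed to 402 to 414 CPM and 476 to 590 CPM, and myeloid markers to 125 to 132 CPM and 102.4 to 120.6 CPM. Their part in the globin values was not tested. In these bulk samples more cells of a type and more RNA per cell cannot be told apart.

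The 2 hairpins lowered their target to different levels, with sh3 below sh2 by a log2 fold change of -0.73 (adjusted p = 0.000752, edgeR) for *Cbfa2t3*. *Hbb-b2+Hbb-bt* was higher with sh3 than with sh2, by a log2 fold change of 0.40 (SE 0.10, adjusted p = 0.0186), which is below the fold limit. *Hba-x* differed by -0.07 (SE 0.39, adjusted p = 0.936), *Hba-a1* by 1.23 (SE 0.51, adjusted p = 0.144) and *Hbb-y* by 0.00 (SE 0.36, adjusted p = 0.999). None of the 4 members tested passed both limits, where 3.71% of all genes did. The difference in *Hba-x* rests on the spread of the sh2 libraries. It was 1.04 (adjusted p = 0.00231) without Eto2 KD-sh2 replicate 1 and -0.69 (adjusted p = 0.0185) without Eto2 KD-sh2 replicate 2, within 0.00231 to 0.945 over the 9 alternatives. With the replicate number as a block, an alternative added after seeing the data, it was 0.04 (adjusted p = 0.923), and *Hbb-b2+Hbb-bt* differed by 0.41 (adjusted p = 0.000146), below the fold limit. *Hbb-b2+Hbb-bt* passed both limits without Eto2 KD-sh2 replicate 1 (0.57, adjusted p = 0.000742), within 2.46e-08 to 0.113 over the 9 alternatives. *Hba-a1* passed both without Eto2 KD-sh2 replicate 2 (2.50, adjusted p = 0.0459), when it reached the filter only through the sh3 libraries, and its adjusted p ran to 0.508. Of all genes 4.57% and 3.29% passed in these 2 fits.

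**Figure D2:**
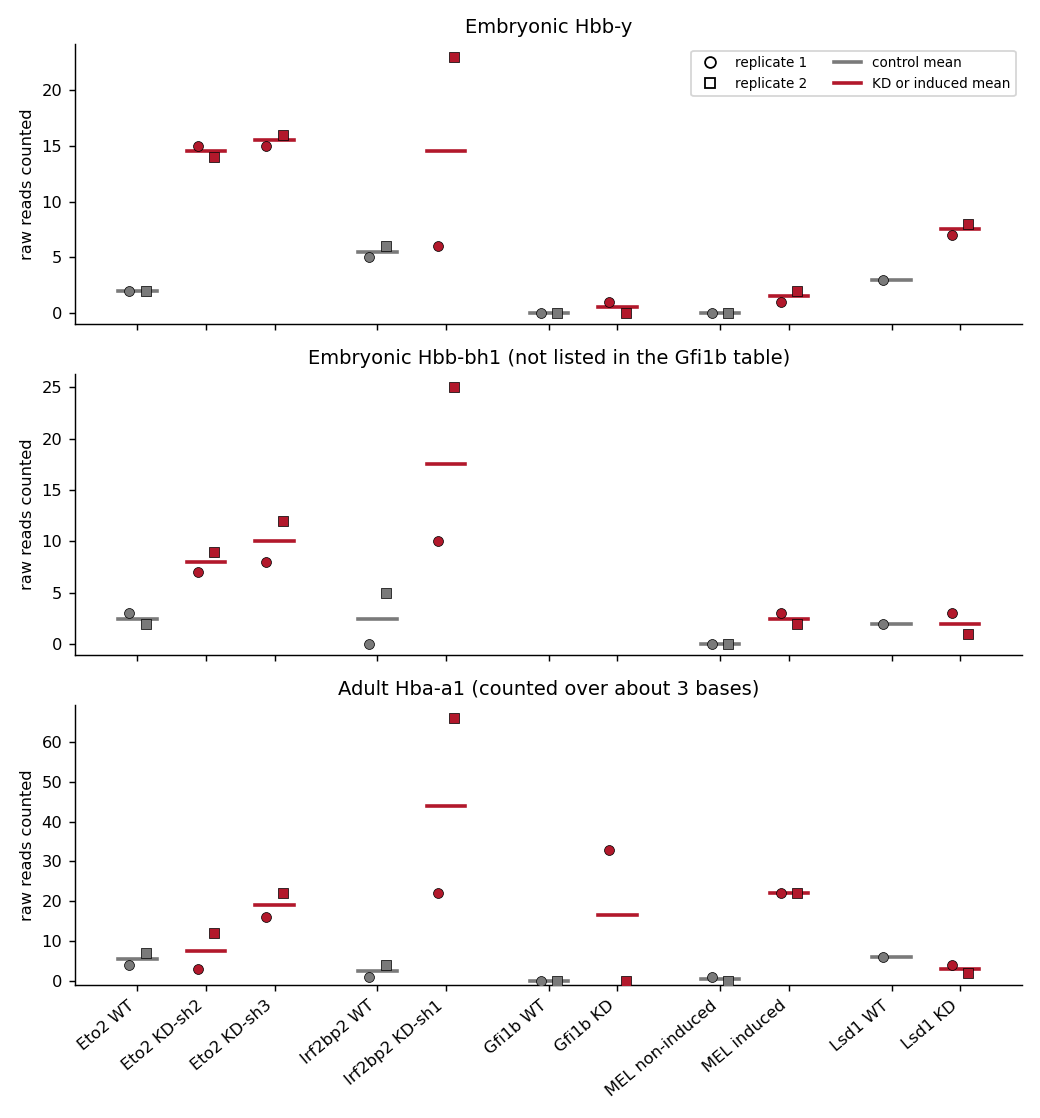
Raw reads of the low members *Hbb-y*, *Hbb-bh1* and *Hba-a1* in each library, not scaled by depth. Circles are replicate 1, squares replicate 2 and bars group means. *Hbb-y* has 14 to 16 reads in the 4 ETO2-depleted libraries and 2 in each of their controls, and Irf2bp2 KD-sh1 replicate 2 stands highest for all 3 genes.

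*IRF2BP2 depletion* gave larger values for the abundant members. *Hbb-b2+Hbb-bt* had 41643 and 71644 reads in Irf2bp2 WT and 187989 and 241829 in Irf2bp2 KD-sh1, which are 841 and 1438 CPM against 4236 and 4674 CPM. The controls differed more from each other than the KD libraries did, and both KD libraries lay well above them. The means were 1139 ± 422 and 4455 ± 310.1 CPM (SD, n = 2 each), 3.91-fold apart, with a log2 fold change of 1.97 (SE 0.17, adjusted p = 9.62e-08, edgeR).

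*Hba-x* had 1136 and 2075 control reads and 25400 and 28183 after KD. Its level went from 22.9 and 41.6 CPM to 572 and 545 CPM, so the KD libraries were close to each other and far from both controls. The means of 32.3 ± 13.2 and 559 ± 19.5 CPM (SD, n = 2 each) differed 17.3-fold, with a log2 fold change of 4.11 (SE 0.19, adjusted p = 3.45e-11, edgeR). In deposited RPKM, which allow levels to be compared between genes, *Hba-x* rose from 54.7 to 908 and *Hbb-b2+Hbb-bt* from 1838 to 6895 (means, n = 2 each).

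*Hba-a1* had 1 and 4 control reads and 22 and 66 after KD, with no overlap. The log2 fold change was 4.10 (SE 0.65, adjusted p = 7.15e-05, edgeR) and the rate ratio 18.2 (7.51 to 57.4, counting error only). It stayed past the limits with each library left out, but its size moved, to 3.45 without Irf2bp2 WT replicate 1, 5.32 without Irf2bp2 WT replicate 2 and 3.24 without Irf2bp2 KD-sh1 replicate 2. *Hbb-bh1* had 0 and 5 control reads and 10 and 25 after KD, a log2 fold change of 2.78 (SE 0.79, adjusted p = 0.00815, edgeR) and a rate ratio of 7.24 (2.82 to 23.7). The call on *Hbb-bh1* was lost without Irf2bp2 WT replicate 1 (log2 fold change 1.83, adjusted p = 0.0624) and without Irf2bp2 KD-sh1 replicate 2 (2.11, adjusted p = 0.165), its log2 fold change was 7.15 without Irf2bp2 WT replicate 2, and its adjusted p ran from 0.000232 to 0.165 over the 8 alternatives. *Hba-a1* and *Hbb-bh1* passed the filter only through the KD libraries, so a test could only have shown a rise.

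*Hbb-y* had 5 and 6 control reads and 6 and 23 after KD. It failed the filter and was not tested, and in CPM its lower KD library lay just above the higher control. Its rate ratio was 2.73 (1.32 to 6.05, counting error only), a value that Irf2bp2 KD-sh1 replicate 2 carries. Without Irf2bp2 KD-sh1 replicate 1 it was tested and passed (log2 fold change 1.99, adjusted p = 0.0456, within 0.0456 to 0.207 over the 4 alternatives that test it), through that single KD library. *Hbb-b1* had 1 and 0 control reads and 1 and 2 after KD, a rate ratio of 3.10 with an interval of 0.249 to 163.

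*Hba-x* and *Hbb-b2+Hbb-bt*, the 2 members that reached the filter in the controls too, rose past both limits, against 10.1% of all 12329 genes that rose and 12.5% that fell. Erythroid markers summed to 1540 to 1635 CPM in the controls and 3728 to 4021 CPM in the KD libraries, and 8 of 9 rose. Megakaryocyte markers rose as well, in 5 of 5 tested, from 368 to 423 CPM in sum to 794 to 834 CPM, with *Ppbp*, a platelet chemokine precursor, 2.07 higher on the log2 scale. Myeloid markers summed to 81.1 to 85.0 CPM and 118 to 128 CPM, with *Spi1*, which encodes the myeloid factor PU.1, higher by 0.57. The part of these markers in the globin values was not tested.

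The rise of each member after IRF2BP2 depletion was set against that after ETO2 depletion in a joint fit of the 4 replicated tables, each with controls of its own. The log2 fold change differed by 2.46 (SE 1.28, adjusted p = 0.504) for *Hba-x*, 2.78 (SE 1.55, adjusted p = 0.553) for *Hba-a1*, -1.46 (SE 1.01, adjusted p = 0.666) for *Hbb-y* and 1.19 (SE 0.97, adjusted p = 0.728) for *Hbb-b2+Hbb-bt*. None of these 4 passed, where 0.742% of all 13620 genes did, so a larger effect of IRF2BP2 depletion was not shown in that fit. The joint fit takes its spread from all 4 tables, among them the 2 unlike libraries of Gfi1b KD. In a fit without the library labelled Gfi1b KD replicate 1, an alternative chosen after seeing the data, the differences were 2.44 (adjusted p = 0.0171) for *Hba-x* and 1.17 (adjusted p = 0.0408) for *Hbb-b2+Hbb-bt*, where 3.11% of all genes passed. In a fit of the *Cbfa2t3* and *Irf2bp2* tables alone, also chosen after seeing the data, they were 2.45 (adjusted p = 0.00709) and 1.18 (adjusted p = 0.011), where 14.4% of all genes passed. Over the 14 alternatives the adjusted p ran from 0.00709 to 0.944 for *Hba-x* and from 0.011 to 0.982 for *Hbb-b2+Hbb-bt*. The targets were lowered by unequal amounts and the tables were made separately, so the size of depletion cannot be told apart from the factor depleted.

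**Figure D3:**
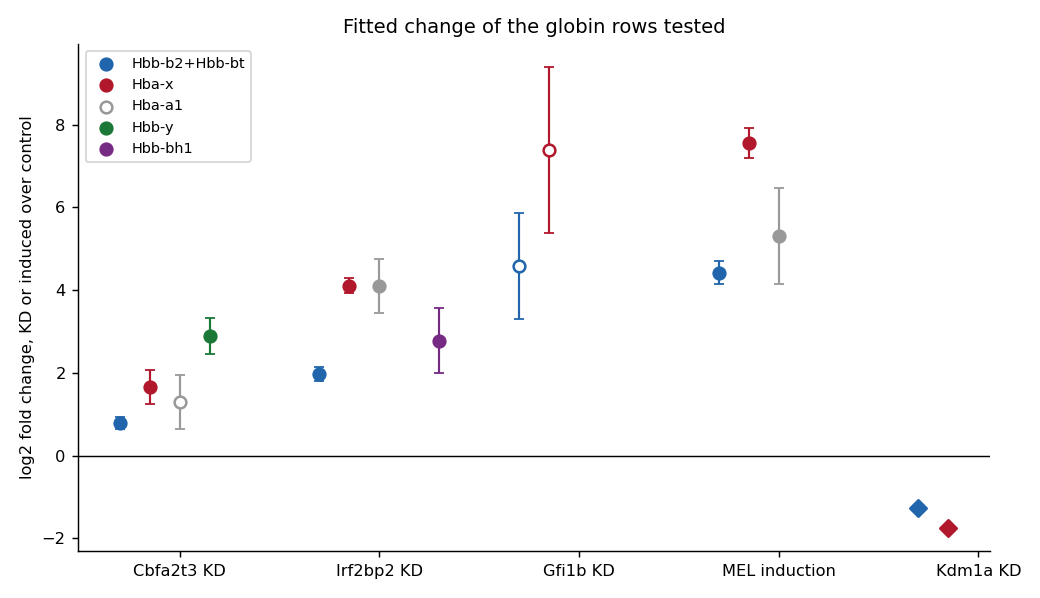
Fitted log2 fold change of each member that passed the filter, KD or induced over control, with bars of 1 standard error. Filled points passed both limits, open points did not, and diamonds (*Kdm1a* KD, 1 control) are described by fold, with no error. *Hba-x* stands at 1.66, 4.11, 7.39, 7.56 and -1.74 from left to right.

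*MEL induction* is the reference for how far these genes move when the cells mature. *Hbb-b2+Hbb-bt* had 2603 and 2037 reads in non-induced and 49751 and 42371 in induced cells, at 129.6 and 171 CPM against 3438 and 3002 CPM. *Hba-x* had 42 reads in each non-induced library and 8508 and 6335 in the induced libraries, at 2.09 and 3.53 CPM against 588 and 449 CPM. For both genes the induced libraries lay far above the non-induced ones. The means differed 21.4-fold for *Hbb-b2+Hbb-bt* (150.4 ± 29.4 and 3220.1 ± 308 CPM, SD, n = 2 each) and 184-fold for *Hba-x* (2.81 ± 1.02 and 518 ± 98.3 CPM). The log2 fold changes were 4.42 (SE 0.28, adjusted p = 5.11e-07) and 7.56 (SE 0.37, adjusted p = 6.43e-08), both from edgeR.

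*Hba-a1* had 1 and 0 reads before induction and 22 in each induced library, a log2 fold change of 5.31 (SE 1.15, adjusted p = 0.0046, edgeR) and a rate ratio of 49.2 with an interval from counting error of 8.39 to 1989. Its call was lost without either non-induced library (adjusted p = 0.0719 and 0.0922, within 0.00193 to 0.0922 over the 8 alternatives), with log2 fold changes of 7.38 and 4.75. *Hba-a1* passed the filter only through the induced libraries, so a test could only have shown a rise. The embryonic β genes stayed near the floor in induced cells. *Hbb-y* had 0 reads in both non-induced libraries and 1 and 2 in the induced ones, and *Hbb-bh1* 0 and 0 against 3 and 2. Neither was tested.

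*Hba-x* and *Hbb-b2+Hbb-bt*, the 2 members that reached the filter before induction too, rose past both limits, against 12.4% of the 11713 genes that rose and 14.8% that fell. Erythroid markers summed to 2018 to 2120.4 CPM before and 4063 to 4381 CPM after induction, and 8 of 9 rose, among them *Slc4a1*, which passed the filter only through the induced libraries. Megakaryocyte markers summed to 382 to 521 CPM and 1158 to 1287 CPM, where *Itga2b* rose. *Ppbp* passed the filter only through the non-induced libraries, so its call could only be a fall. Myeloid markers summed to 44.4 to 83.9 CPM before and 12.5 to 27.9 CPM after, and *Spi1* fell (log2 fold change -1.66). Their part was not tested.

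*GFI1B depletion* gave globin values that differ between the 2 libraries labelled KD. *Hbb-b2+Hbb-bt* had 719 and 609 reads in Gfi1b WT, 48139 in the library labelled Gfi1b KD replicate 1 and 1114 in Gfi1b KD replicate 2. In CPM these are 49.2 and 61.3 against 2562 and 94.5. *Hba-x* had 24 and 10 control reads, 8571 in the library labelled Gfi1b KD replicate 1 and 42 in Gfi1b KD replicate 2. Its levels were 1.64 and 1.01 CPM in the controls against 456 and 3.56 CPM in the same order. *Hba-a1* had 0 reads in both controls, 33 in the library labelled replicate 1 and 0 in replicate 2. *Hbb-y* had 1 read, in that same library. Both libraries labelled Gfi1b KD lay above both controls for *Hba-x* and *Hbb-b2+Hbb-bt*. In the order of their replicate numbers they stood at 344-fold and 2.69-fold of the control mean for *Hba-x*. For *Hbb-b2+Hbb-bt* they stood at 46.4-fold and 1.71-fold. Depletion of *Gfi1b* is not shown in the library labelled replicate 1. Over 13620 genes of the 4 replicated tables, Pearson's r of that library was highest with MEL induced replicate 1 (0.967). The 2 MEL induced libraries had an r of 0.962 with each other. Its r was 0.948 with MEL induced replicate 2, and 0.952 and 0.9501 with the non-induced libraries. Within its own table it was 0.945 and 0.941 with the controls and 0.933 with Gfi1b KD replicate 2. The cause was not tested.

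The log2 fold changes were 7.39 (SE 2.0) for *Hba-x* and 4.59 (SE 1.29) for *Hbb-b2+Hbb-bt*, and neither passed (adjusted p = 0.69 each, edgeR). For *Gfi1b* KD, 0% of the 11190 genes tested passed both limits, with 784 at an unadjusted p under 0.05, and DESeq2 called 59 genes, none of them a member. Without the library labelled Gfi1b KD replicate 1, *Hbb-b2+Hbb-bt* rose by a log2 fold change of 0.78 (adjusted p = 0.00212), and *Hba-x* had 1.4 (adjusted p = 0.441), where 3.48% of all genes passed. Without Gfi1b KD replicate 2, the changes were 8.34 for *Hba-x* and 5.52 for *Hbb-b2+Hbb-bt*, both past the limits, where 26.7% of all genes passed. Over the 8 alternatives the adjusted p ran from 2.89e-90, without the filter on low counts, to 0.999967 for *Hba-x*. Erythroid markers summed to 3413 CPM in the library labelled Gfi1b KD replicate 1 and 1394 CPM in replicate 2, against 1265 to 1394 CPM in the controls. The megakaryocyte sums were 883 and 174 CPM in the same order, and 221 to 285 CPM in the controls. The myeloid sums were 44.5 and 76.2 CPM, and 61.8 to 71.0 CPM in the controls. Their part was not tested.

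The difference between the effects of GFI1B and ETO2 depletion was 5.61 (SE 1.60, adjusted p = 0.0945) for *Hba-x*, 3.69 (SE 1.00, adjusted p = 0.0791) for *Hbb-b2+Hbb-bt*, 6.71 (SE 3.43, adjusted p = 0.31) for *Hba-a1* and 0.43 (SE 0.95, adjusted p = 0.839) for *Hbb-y*. None passed, where 1.41% of all genes did. Without the library labelled Gfi1b KD replicate 1, the differences were -0.31 for *Hba-x* and -0.03 for *Hbb-b2+Hbb-bt*, with no call, where 2.39% of all genes passed. Without Gfi1b KD replicate 2 they were 6.63 (adjusted p = 2.16e-05) and 4.67 (adjusted p = 4.34e-07), both past the limits, where 20.1% of all genes passed. Over the 12 alternatives the adjusted p ran from 2.16e-05 to 0.916 for *Hba-x* and from 4.34e-07 to 0.999 for *Hbb-b2+Hbb-bt*.

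*LSD1 depletion* went the other way for the abundant members. *Hbb-b2+Hbb-bt* had 60489 reads in Lsd1 WT and 27777 and 23341 in Lsd1 KD, at 1237 CPM against 512 and 511 CPM, a 2.42-fold lower mean. *Hba-x* had 4210 reads against 1433 and 1141, at 86.1 CPM against 26.4 and 25.0 CPM, a 3.35-fold lower mean. The KD libraries lay close together and both below the single control. The log2 differences were -1.27 and -1.74. With 1 control library the spread between controls cannot be estimated, so the comparison is described by fold. An edgeR fit that assumes the lone control to vary like the KD libraries gave an adjusted p of 6.65e-14 for *Hba-x* and 7.0e-12 for *Hbb-b2+Hbb-bt*, where 22.5% of all genes passed. A gene was counted as lower or higher where each KD library lay past the log2 limit of 0.5. Both members past the filter were lower, where 9.8% of 12628 genes were lower and 13.1% higher.

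The embryonic β genes gave few reads. *Hbb-y* had 3 reads in the control and 7 and 8 in the KD libraries (rate ratio 2.45, 0.692 to 13.2), and *Hbb-bh1* had 2 reads and 3 and 1 (0.979, 0.14 to 10.8), intervals that cover counting error only and include 1. *Hba-a1* had 6 reads against 4 and 2. No difference beyond counting error was seen in *Hbb-y* or *Hbb-bh1*. The *Lsd1* control also stood above the other control groups for *Hba-x*, at 86.1 CPM against 22.9 to 41.6 CPM in the controls of the *Cbfa2t3* and *Irf2bp2* tables. Erythroid markers summed to 1893 CPM in the control and 1315 to 1324 CPM in the KD libraries, with 4 of 9 lower, among them *Slc4a1* and *Epb4.2*. Megakaryocyte markers summed to 338 CPM and 285 to 348 CPM. Myeloid markers summed to 121.5 CPM in the control and 181 to 186 CPM in the KD libraries, with *Spi1* higher by 0.59. Their part was not tested.

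Set in order over the groups, the level of *Hbb-b2+Hbb-bt* was highest in Irf2bp2 KD-sh1 (4455 CPM), followed by MEL induced (3220.1), Eto2 KD-sh3 (2138) and Eto2 KD-sh2 (1618). The ranges of Eto2 KD-sh2, Gfi1b KD (1328), Lsd1 WT (1237) and Irf2bp2 WT (1139) each overlap that of the next group, the last with Eto2 WT (1086). Lsd1 KD (511), MEL non-induced (150.4) and Gfi1b WT (55.3) came last, each below the range of the group before. The place of Gfi1b KD rests on the library labelled replicate 1 (2562 CPM). Without that library, Gfi1b KD replicate 2 (94.5 CPM) lay between MEL non-induced and Gfi1b WT, and Eto2 KD-sh2 (at least 1442 CPM) lay above Lsd1 WT. For *Hba-x*, Irf2bp2 KD-sh1 (559), MEL induced (518), Gfi1b KD (229.9), Eto2 KD-sh2 (106), Eto2 KD-sh3 (101.6) and Lsd1 WT (86.1) overlap in that order. Eto2 WT (32.8), Irf2bp2 WT (32.3) and Lsd1 KD (25.7) form the next group of overlapping ranges, above MEL non-induced (2.81) and Gfi1b WT (1.33). The place of Gfi1b KD for *Hba-x* rests on the library labelled replicate 1 (456 CPM). Without that library, Gfi1b KD replicate 2 (3.56 CPM) lay below Lsd1 KD, and MEL induced (at least 449 CPM) did not overlap Eto2 KD-sh2 (at most 163 CPM). The tables were scaled separately, so this order is a description. The untreated MEL cells and the siRNA controls held far fewer globin reads than the shRNA controls, and the table, depth and treatment cannot be told apart there.

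Embryonic and adult use was compared within each library, where no scaling enters. The embryonic share of β-cluster reads was taken as *Hbb-y* and *Hbb-bh1* together over the reads of the β member rows (*Hbb-y*, *Hbb-bh1*, *Hbb-b1* and *Hbb-b2+Hbb-bt*), without *Hbb-bs*. *Hbb-b1* was counted over 1.0 base and *Hbb-bs* over 9.02, so adult β reads may be counted only in part. The shares are compared between libraries, and their absolute size is uncertain. In Eto2 WT it was 0.00907% (Wilson 95% interval 0.00388 to 0.0212) and 0.00646% (0.00251 to 0.0166). In the ETO2-depleted libraries it was 0.0248%, 0.0315%, 0.0207% and 0.0241%, all above both controls. The means were 0.00777 ± 0.00185% (SD, n = 2) and 0.0253 ± 0.00453% (SD, n = 4), with p = 0.0667 in a two-sided exact permutation test, the smallest p that this design allows. Intervals cover counting error only.

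In Irf2bp2 WT the share was 0.012% and 0.0154%, and in Irf2bp2 KD-sh1 it was 0.00851% and 0.0198%. The KD libraries enclosed the controls, with a difference of means of 0.000499 percentage points (exact permutation p = 1, smallest possible 0.333). In MEL induction the share was 0 of 2603 and 0 of 2037 reads before, which allows up to 0.115% and 0.147%, and 0.00804% and 0.00944% after. The shallow libraries of the *Gfi1b* table gave 0 of 719, 0 of 609 and 0 of 1114 reads, and 0.00208% in the library labelled Gfi1b KD replicate 1. These zeros allow up to 0.417%, 0.493% and 0.269% at the floor of 3 reads, with Wilson upper limits of 0.531%, 0.627% and 0.344%. After LSD1 depletion it was 0.036% and 0.0385% (10 of 27787 and 9 of 23350 reads) against 0.00827% (5 of 60494) in the control, with no test. The totals there were lower in the KD libraries, as *Hbb-b2+Hbb-bt* was, so the share does not by itself show more embryonic reads. Where any embryonic β read was counted, the share was at most 0.0385% of the β reads counted.

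On the α side the embryonic gene *Hba-x* was abundant, but the adult gene *Hba-a1* was counted over only 2.998 bases. An embryonic share of α reads could therefore not be taken, and the measure used sets an α-like gene against a β row. *Hba-x* was set against *Hbb-b2+Hbb-bt*, as reads per 100 reads of the adult row, a measure chosen after seeing the data. It was 2.57 and 3.46 in Eto2 WT and 9.11, 3.43, 5.28 and 4.16 in the KD libraries, which overlap through Eto2 KD-sh2 replicate 2. The means of 3.02 ± 0.63 (SD, n = 2) and 5.49 ± 2.53 (SD, n = 4) gave an exact permutation p of 0.267. In Irf2bp2 WT it was 2.73 and 2.90, and in Irf2bp2 KD-sh1 13.5 and 11.7, means of 2.81 ± 0.12 and 12.6 ± 1.31 (SD, n = 2 each, exact permutation p = 0.333, the smallest possible). In MEL cells it went from 1.61 and 2.06 to 17.1 and 14.95 with induction, also at the smallest possible p of 0.333. In the *Gfi1b* table it was 3.34 and 1.64 in the controls, 17.8 in the library labelled Gfi1b KD replicate 1 and 3.77 in Gfi1b KD replicate 2. After LSD1 depletion it was 5.16 and 4.89 against 6.96 in the control.

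**Figure D4:**
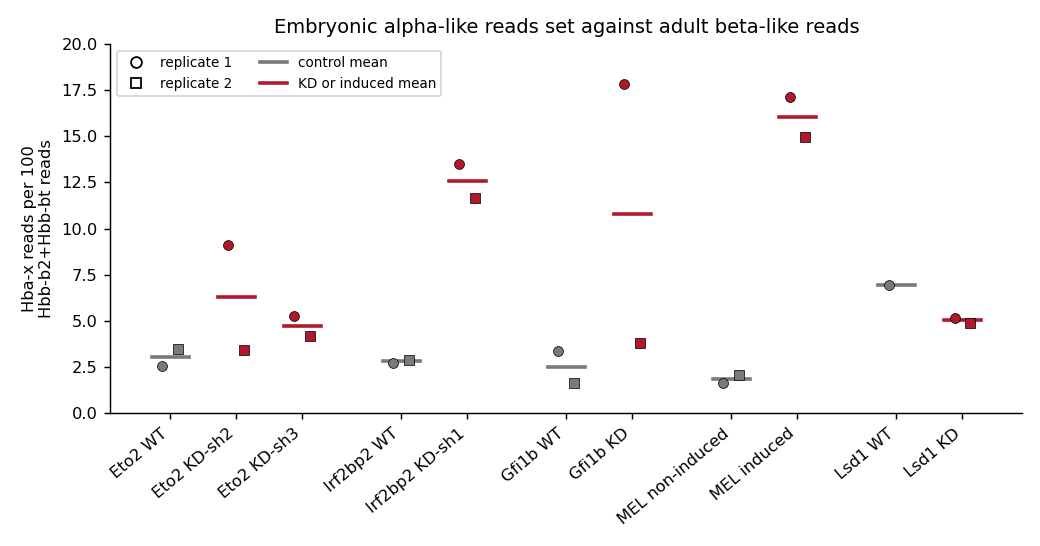
*Hba-x* reads per 100 reads of *Hbb-b2+Hbb-bt* in each library, on a linear axis. Circles are replicate 1, squares replicate 2 and bars group means. Irf2bp2 KD-sh1, MEL induced and the library labelled Gfi1b KD replicate 1 lie between 11.7 and 17.8, and all other libraries at 9.11 or below.

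Other than members, the genes whose changes ran most like those of *Hba-x* and *Hbb-b2+Hbb-bt* were the same 3. Likeness was Pearson's r of the log2 CPM difference from the mean control of the own table, over the 12 KD and induced libraries and 11040 genes. For *Hba-x* it was 0.989 for *Rhd*, 0.989 for *Cgn* and 0.988 for *BC021767*. For *Hbb-b2+Hbb-bt* it was 0.997 for *Cgn*, 0.995 for *BC021767* and 0.991 for *Rhd*. *Hba-x* and *Hbb-b2+Hbb-bt* had an r of 0.99 with each other, above the 3 values of *Hba-x* with these genes. *Rhd* encodes a subunit of the red cell Rh complex and *Cgn* the tight junction protein cingulin. The 12 points share controls within a table, and the library labelled Gfi1b KD replicate 1 and the induced libraries lie far from the rest, so these values are a description.

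Of the other globin family genes, the θ-like genes moved with the members. The θ-like genes *Hbq1a* and *Hbq1b*, which lie downstream of the adult α genes, went from 127 and 140 reads to 401, 394, 570 and 719 (*Hbq1a*) and from 287 and 299 reads to 929, 887, 2882 and 2728 (*Hbq1b*) with ETO2 depletion. The sh3 libraries lay above the sh2 libraries for both. Their log2 fold changes were 2.01 (adjusted p = 0.000941) and 2.71 (adjusted p = 0.0133) for ETO2 depletion, 3.07 and 3.14 for IRF2BP2 depletion, and 6.62 and 7.26 for MEL induction, all past the limits in edgeR. In MEL induction both passed the filter only through the induced libraries. They were 0.96 and 1.95 lower on the log2 scale in LSD1-depleted cells. Between 36.8 and 39.8% of the pieces of 50 bases of either transcript occur in the other, so how reads are divided between them is uncertain. *Hbb-bs*, counted over 9.02 bases, rose with IRF2BP2 depletion from 5 and 2 reads to 13 and 16 (log2 fold change 2.06, adjusted p = 0.0148), and passed the filter only through the KD libraries. *Cygb*, which encodes cytoglobin, did not pass after ETO2 depletion (-0.13), IRF2BP2 depletion (-0.35), GFI1B depletion (0.80) or induction (-0.76), was lower with sh3 than with sh2 (-0.57), and was 0.67 higher in LSD1-depleted cells. Of the 13 genes in this list, 6, 7, 5 and 5 were listed and 3, 4, 1 and 3 tested for *Cbfa2t3* KD, *Irf2bp2* KD, *Gfi1b* KD and induction.

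Of the 8 genes listed beside the α cluster, 4 rose with ETO2 depletion, 5 with IRF2BP2 depletion and 3 with MEL induction, where 2.99%, 10.1% and 12.4% of all genes rose, and none fell. *Nprl3*, whose introns hold the α enhancers, rose by 0.57, 0.69 and 1.39 on the log2 scale, and *Il9r* by 0.74, 1.39 and 2.05. The list medians were 0.47, 0.70 and 0.31, against 0.00, -0.01 and -0.02 over all genes. Of the 20 transcription factors and cofactors of the globin loci, 2 rose with ETO2 depletion, which were *Klf1* (0.51) and *Tal1* (0.57). With IRF2BP2 depletion 9 rose, led by *Tal1* (1.34), and 1 fell, which was *Myb* (-0.85), where 12.5% of all genes fell. With induction 7 rose, led by *Klf3* and *Tal1* (1.83 each), and 3 fell, *Myb* by -1.997, a share near the 14.8% of all genes that fell. Their medians were 0.09, 0.31 and 0.44.

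Of the 14 genes of haem supply and globin translation control 13 were tested, and 9, 13 and 10 rose with ETO2 depletion, IRF2BP2 depletion and induction, with none lower, where 2.99%, 10.1% and 12.4% of all genes rose. *Alas2*, which encodes the erythroid enzyme of the first step of haem synthesis, rose by 2.10, 3.28 and 5.48 on the log2 scale. The medians were 0.90, 1.36 and 1.65. In the *Gfi1b* table these lists had no call, as no gene of the table had one. In LSD1-depleted cells, by fold, 1 gene beside the α cluster was higher and 1 lower, 3 transcription factors were lower (*Tal1* by -0.90), and 3 haem genes were lower, where 13.1% of all genes were higher and 9.8% lower. The lists are read as counts, since they were chosen with earlier results known.

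The binding sites of ETO2 and IRF2BP2 around the globin genes came from a single combined list of 13229 sites on mm9. The samples hold 1 ChIP library for IRF2BP2 and none for ETO2, whose ChIP reads the methods take from a published data set, so no site has a replicate value here. Of these, 14 lay within 60 kb of the start of a member, 4 around the α cluster and 10 around the β cluster. All 4 α sites were shared by both factors, a class that holds 20.6% of the list. Of the β sites 3 were shared, 6 were IRF2BP2 only (66.1% of the list) and 1 was ETO2 only (13.3%). The class codes of the list were read from the class sizes given in the methods. For a shared site, the list does not say which antibody the fold enrichment over IgG belongs to.

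The α sites all lay upstream of *Hba-x*. The highest, with a fold enrichment of 34.25, lay 30.6 kb upstream in an intron of *Nprl3*, at chr11:32145283-32146246. Sites of 9.67-fold and 5.29-fold lay 25.3 and 11.1 kb upstream in introns of the same gene, and 1 of 17.3-fold lay 7.25 kb upstream between genes. Upstream of *Hbb-y* the IRF2BP2-only sites of 26.4-fold and 23-fold, the highest of the β cluster, lay 7.81 and 6.05 kb away, between genes. Another IRF2BP2-only site (11.5-fold) lay 9.63 kb upstream, the ETO2-only site (8.25-fold) 12.7 kb upstream, and shared sites of 6.43-fold and 12.2-fold 17.6 and 57 kb upstream. The 4 other β sites were centred beyond the 3′ end of *Hbb-b2*, 1.71 to 4.84 kb from the start of *Hbb-b2*, with folds of 6.25 to 9.75. No listed site covered the start of a member, and the median fold of the list was 7.33. The classes are those of the list, and the study reports both factors together on the β-globin cluster. A class of IRF2BP2 only does not by itself show that ETO2 was absent from a site.

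**Figure D5:**
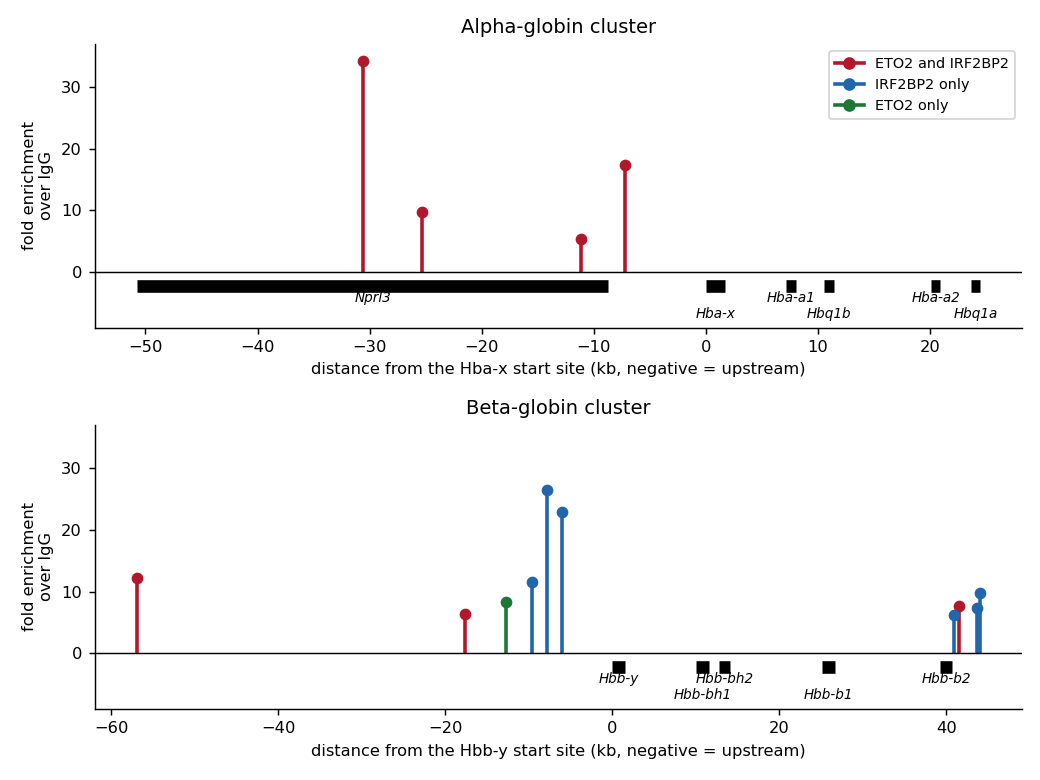
Fold enrichment over IgG of each listed site against its distance from the start of *Hba-x* (upper panel) or *Hbb-y* (lower panel) in kb, negative values upstream. Stems are coloured by class and black boxes are genes. All 4 α sites are red (shared), and the tallest β stems, 7.81 and 6.05 kb upstream, are blue (IRF2BP2 only).

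The 2 sites with the highest folds of each cluster, and the other site upstream of *Hbb-y* that held the composite motif, are shown as short windows on the + strand of mm9. Capitals mark the composite E-box and GATA motif on either strand where a window was centred on it, and GATAAG on either strand otherwise. The composite motif stood in 23% of all listed sites, in 40.3% of shared, 40.7% of ETO2-only and 14% of IRF2BP2-only sites, and GATAAG in 43.7% of all sites. These are letter matches over whole sites. The study used a de novo motif search in shorter windows and reports no such motif in its IRF2BP2-only sites.
α site 30.6 kb upstream of Hba-x, shared, chr11:32145808-32145928: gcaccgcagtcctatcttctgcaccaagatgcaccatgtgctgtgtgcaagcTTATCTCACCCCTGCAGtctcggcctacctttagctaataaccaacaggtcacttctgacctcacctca
α site 7.25 kb upstream of Hba-x, shared, chr11:32169094-32169214: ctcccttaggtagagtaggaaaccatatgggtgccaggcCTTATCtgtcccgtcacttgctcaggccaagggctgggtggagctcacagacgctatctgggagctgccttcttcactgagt
β site 6.05 kb upstream of Hbb-y, IRF2BP2 only, chr7:111007714-111007834: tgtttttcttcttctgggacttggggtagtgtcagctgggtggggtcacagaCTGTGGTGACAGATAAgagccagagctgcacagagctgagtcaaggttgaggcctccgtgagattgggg
β site 7.81 kb upstream of Hbb-y, IRF2BP2 only, chr7:111009504-111009624: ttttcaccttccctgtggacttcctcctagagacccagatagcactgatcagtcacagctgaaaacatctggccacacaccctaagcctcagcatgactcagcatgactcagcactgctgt
β site 17.6 kb upstream of Hbb-y, shared, chr7:111019307-111019427: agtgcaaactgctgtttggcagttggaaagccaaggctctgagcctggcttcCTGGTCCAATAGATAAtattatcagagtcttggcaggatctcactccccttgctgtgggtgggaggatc

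The 30.6 kb α site held 2 matches to the composite motif over its whole length and the other 3 α sites none. The 7.25 kb α site held 1 GATAAG. The 6.05 kb β site, which is IRF2BP2 only, held 1 composite motif and 2 GATAAG, and the 7.81 kb site held neither. A match is a stretch of letters and not evidence of binding by these factors. Within 20 kb of a member, 11 of the 14 sites remained, with 2 at the α and 9 at the β cluster, and 11 of the 14 had a fold at or above the median of the list.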

How the data were processed

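RNA-Seq of MEL cells was analysed from 5 tables with 21 libraries. Per the study's methods, the authors aligned reads to mm9 with TopHat2 and counted them per gene, and the deposited tables hold these raw read counts. The deposited RPKM values divide the counts by the counted length of a gene and the depth. For the binding sites the authors deposited a fold enrichment, a ratio of ChIP reads over IgG reads, with an adjusted p-value per site, which was not tested again. Columns with the authors' own fold changes and p-values of the RNA-Seq comparisons were not used.

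Counts were tested with edgeR 4.0.16 (quasi-likelihood, TMM, its filter on low counts, R 4.3.3), separately per comparison, and jointly over the 4 replicated tables for differences between effects. Calls required a Benjamini-Hochberg adjusted p no higher than 0.05 together with a log2 change of at least 0.5 in size. The *Kdm1a* comparison, with 1 control, was described by fold, with an edgeR fit that takes its spread from the KD libraries as an alternative. Shares were compared by two-sided exact permutation over libraries. Scripts were tested on simulated data. Depth and its floor of 3 counts are given with the values, and replicate libraries of each group differed beyond sampling noise (chi-square per degree of freedom of 8.32 to 92.7).

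The members and gene lists were chosen with earlier results of these data known. All members and the targeted genes are named, with the 3 genes most like each member of at least 1 CPM, and list genes only for counts of 5 or fewer or as the 2 largest rises or falls. Libraries with the same replicate number deviated together in all 3 pairs of ETO2 groups (r of 0.252, 0.118 and 0.246 over genes), so the block on the number is given there as a pairing found in the data, between hairpins as an alternative added after seeing the data. Class codes of the binding sites were read by matching class sizes to the methods. Alternatives were DESeq2 1.42.0 (test and size factors), no filter, another prior count, single hairpins, the block, RPKM in place of counts, a site distance of 20 in place of 60 kb, and leaving out each library. Promoters were searched in the 250 bases before each start with Python 3.11.15.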

Additional observations from a re-analysis of the deposited data

Results flagged for a closer look

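*Hba-x* and *Hbb-b2+Hbb-bt* moved in opposite directions after LSD1 depletion and after depletion of ETO2 or IRF2BP2, in every KD library. *Hba-x* differed from its control by -1.74 on the log2 scale in *Kdm1a* KD, against 1.66 in *Cbfa2t3* KD and 4.11 in *Irf2bp2* KD. *Hbb-b2+Hbb-bt* differed by -1.27 in *Kdm1a* KD, against 0.79 and 1.97. The differences between these effects were not tested. The value for *Kdm1a* KD rests on 1 control library, at 86.1 CPM of *Hba-x*, while the KD libraries (25.0 and 26.4 CPM) lay within the 22.9 to 41.6 CPM of the controls of the *Cbfa2t3* and *Irf2bp2* tables, which were scaled separately. The 1.66 of *Cbfa2t3* KD lost its call with the replicate number as a block (1.52, adjusted p = 0.0562, edgeR).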

How the results depend on the processing

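Called members numbered 0 to 3 for ETO2 depletion, 0 to 3 for GFI1B depletion and 0 to 2 between hairpins with single libraries left out, and 0 to 3 for the difference of the GFI1B and ETO2 effects. The counts of 3 include *Hbb-y* for ETO2 depletion and *Hba-a1* for GFI1B depletion and the difference, and the hairpin count of 2 without Eto2 KD-sh2 replicate 2 includes *Hba-a1*, all of which reached the filter only where they were high. In the same fits 2.19 to 6.39%, 0 to 26.7%, 2.83 to 4.57% and 0.0565 to 20.1% of all genes passed. Without the filter on low counts, 2 members passed for GFI1B depletion, where 411 genes passed in all against 0 with the filter, and the cause was not tested. In the joint fits chosen after seeing the data, 2 members passed for the difference of the IRF2BP2 and ETO2 effects, both without the library labelled Gfi1b KD replicate 1 and in those tables alone (3.11 and 14.4% of all genes, against 0.742% in the planned fit), and 0 passed when any 1 ETO2 or IRF2BP2 library was left out of the planned fit.

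Directions that turned were those of small or doubtful values. Between hairpins, *Hba-x* ran from -0.69 to 1.04 and *Hbb-y* from -0.064 to 0.073 over left-out libraries, and *Hbb-y* was -0.0023 with DESeq2's size factors. For the GFI1B effect minus the ETO2 effect, leaving out libraries gave -0.31 to 6.63 for *Hba-x*, -1.29 to 7.64 for *Hba-a1*, -2.86 to 1.13 for *Hbb-y* and -0.027 to 4.67 for *Hbb-b2+Hbb-bt*, the negative values all without the library labelled Gfi1b KD replicate 1. The difference in embryonic β share after IRF2BP2 depletion ran from -0.00517 to 0.00617 percentage points over left-out libraries. Without the joined adult row, which leaves few reads, it was 3.39 percentage points for IRF2BP2 depletion and 8.33 for ETO2 depletion. For LSD1 depletion that difference was 0 without the joined adult row, where every remaining read of a β member was embryonic, and it could not be computed for the *Gfi1b* and MEL controls.

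With the replicate number as a block, *Hba-x* after ETO2 depletion had a log2 fold change of 1.52 (adjusted p = 0.0562, edgeR), and *Hbb-b2+Hbb-bt* stayed called. The block changed no call of a member for IRF2BP2 depletion, GFI1B depletion or MEL induction. In these 3 tables a single pair of groups shares only the numbers, with correlations of 0.025, 0.0015 and 0.196. Between hairpins the block gave 0.043 for *Hba-x*, which turned its direction, and 0 calls. Depth limits *Hbb-y* and *Hbb-bh1*, most in the *Gfi1b* and MEL libraries, while *Hbb-b1* was counted over 1.0 base and what limits it was not tested. With 1 library left in an arm, it is assumed to vary like the others.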
